A study of Mus musculus with 17 samples.

Results

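Levels of Ppara and 7 of its known target genes (Cyp4a10, Cyp4a14, Acot1, Ehhadh, Vnn1, Pdk4, and Cpt1a) were compared in mouse liver. The 8 genes were taken by their symbols in the array annotation, out of 21452 symbols on the array, and are represented by 12 probes: 4 for Cyp4a10, 2 for Cpt1a, and 1 for each of the others. The livers came from 17 male mice, labeled C57BL/6N in the sample records and C57BL/6J in the methods. All were on their diet for 3 months and received 1 gavage. The chow group (n = 4) ate chow and received maltose, and the 1B group (n = 4) ate chow and received a binge of ethanol (5 g/kg). The HFD group (n = 4) ate a high-fat diet (60% of calories from fat) and received maltose, and the HFD+1B group (n = 5) ate the same diet and received the ethanol binge. The methods give collection 9 hours after the gavage, so every value is from a single time point. Each sample is 1 mouse.

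PPAR-alpha, the product of Ppara, is a nuclear receptor that is activated by fatty acids and their derivatives. It pairs with the retinoid X receptor on DNA and drives genes that burn fatty acids, most strongly in the liver during fasting. Its targets cover several steps: omega-oxidation in the endoplasmic reticulum (Cyp4a10 and Cyp4a14), cleavage of acyl-CoA (Acot1), peroxisomal beta-oxidation (Ehhadh), entry of fatty acids into mitochondria (Cpt1a), and the block on pyruvate use that spares glucose (Pdk4). Vnn1, a pantetheinase that takes part in the turnover of coenzyme A, is also a known target.

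Levels are given as the log2 ratio of the liver signal (Cy5) to a reference RNA hybridized on the same array (Cy3), so that they compare mice for 1 probe and not genes with each other. A difference between groups is a difference of mean log2 ratios, with its standard error from limma and a Benjamini-Hochberg adjusted p over all 34664 probes tested. A gene was called changed at an adjusted p of 0.05 or less on its brightest probe. All 12 probes were well above background on all 17 arrays, and none was saturated. Pdk4 was the dimmest, with a median Cy5 signal of 122 intensity units. Among the 8 brightest probes, 8 values were left out because the scanner software had marked the spot as an outlier, and Cyp4a10 and Ehhadh therefore rest on only 2 HFD mice. The arrays lay on 5 slides, each with 3 or 4 mice of different groups.

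The liver identity of the samples was checked with 8 hepatocyte genes, all of which were well above background on all 17 arrays. Their mean log2 ratio lay between 0.47 and 0.69 for chow, 0.76 and 1.09 for 1B, 0.44 and 0.79 for HFD, and 0.26 and 0.92 for HFD+1B mice. The 1B range lay above the chow range. Of the 8 genes, 1 was higher and 0 were lower in 1B than in chow, beside 2.09% and 2.04% of all genes tested. In HFD+1B against 1B, 0 were higher and 3 lower, beside 6.28% and 5.15%. In HFD+1B against chow, 2 were higher and 2 lower, beside 8.9% and 7.4%. In HFD+1B against HFD, 2 were higher and 2 lower, beside 11% and 8.39%. In HFD against chow, 0 were higher and 1 lower, beside 4.5% and 6.47%. Markers of other cell types also differed between some groups. The mean of 7 macrophage and Kupffer cell genes lay between −0.60 and −0.04 for chow, −0.49 and −0.28 for 1B, 0.11 and 0.34 for HFD, and −0.15 and 0.46 for HFD+1B mice. Of these 7, 3 were higher in HFD than in chow, beside 4.5% of all genes. The mean of 7 stellate cell genes lay between −0.60 and −0.18 for chow, −0.24 and −0.18 for 1B, −0.011 and 0.19 for HFD, and −0.40 and 0.47 for HFD+1B mice. Of these 7, 2 were higher in HFD and 3 in HFD+1B than in chow, beside 4.5% and 8.9% of all genes. The mean of 5 endothelial genes lay between −0.53 and −0.36 for chow and between −0.30 and −0.10 for 1B, without overlap. Of these 5, 3 were lower and 1 higher in HFD+1B than in HFD, beside 8.39% and 11% of all genes. Among 8 neutrophil genes, HFD+1B mice had 2 above and 1 below chow, beside 8.9% and 7.4% of all genes. Set against HFD, the counts were again 2 above and 1 below, beside 11% and 8.39%. Each other comparison of groups had 1 neutrophil gene higher and 0 lower, beside 2.09% to 6.28% higher of all genes. Among 3 erythroid genes, HFD+1B mice had 1 above chow and 1 above 1B, beside 8.9% and 6.28%. Among 3 muscle genes, HFD mice had 1 above chow, beside 4.5%. Apart from these, 0 erythroid or muscle genes passed between groups, and 0 of 5 adipocyte genes did. The part of these cells in the results was not tested. In whole liver, fewer cells of a type and less RNA per cell cannot be told apart. The mean of 5 ribosomal RNA probes was between −3.81 and −2.15 in HFD mice and between −1.16 and 1.12 in the other 13, without overlap. It was between 0.22 and 0.59 in chow and between −1.16 and 0.12 in 1B mice, which did not overlap either. This signal therefore moved with every comparison that involves the HFD group and, by less, with 1B against chow. Counts over the 8 genes with it as a covariate are given with those over the whole set. Its part in the differences of the other pathway genes was not tested.

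**Figure D1:**
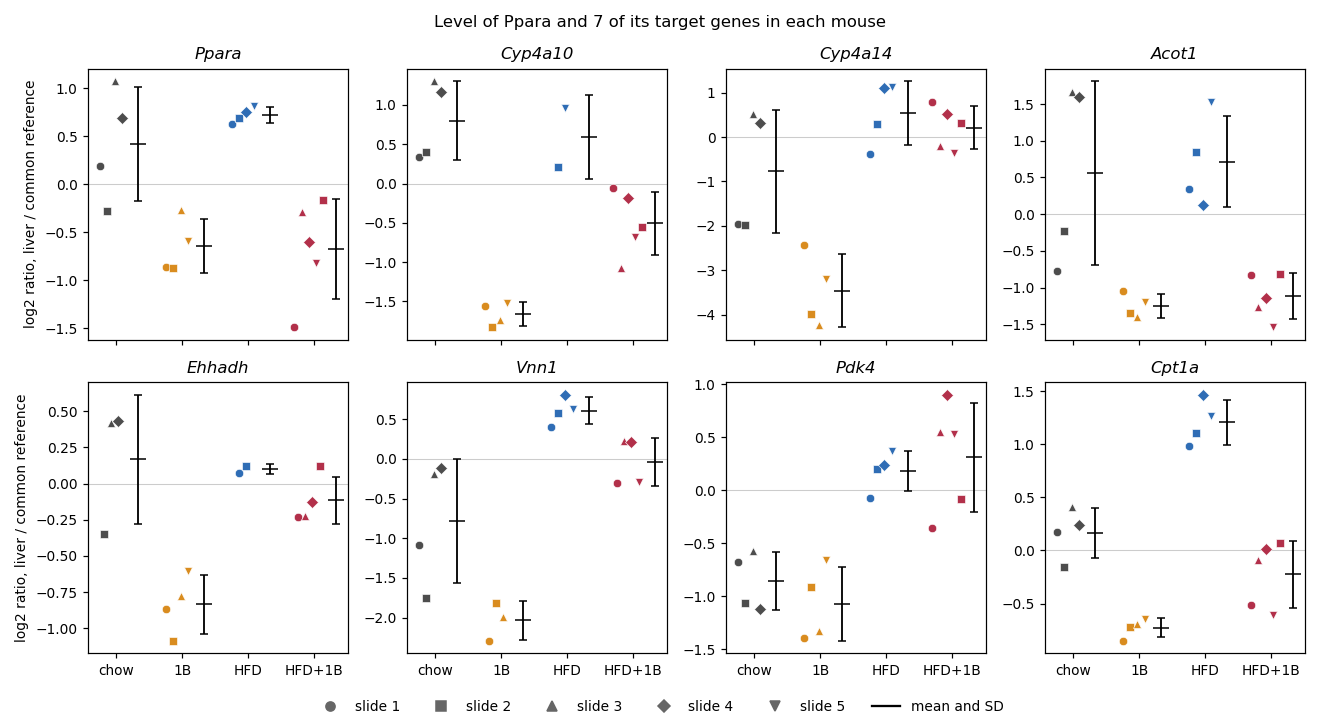
Log2 ratio of liver to common reference (y axis) for the brightest probe of each of 8 genes in chow, 1B, HFD, and HFD+1B mice (x axis). Each point is 1 mouse, its shape gives the slide, and the bar beside the points is the mean with the SD. Among mice with a value, the 1B mice lie below all chow mice for Cyp4a10, Cyp4a14, Acot1, Ehhadh, Vnn1, and Cpt1a. The share of all genes that separate in this way is not given.

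The binge in chow-fed mice was accompanied by lower levels across the set. Of the 8 genes, 7 were lower in 1B than in chow and 0 were higher, beside 2.04% lower and 2.09% higher of all 19358 genes tested. The median difference of the 8 genes was −1.16 on the log2 scale, against 0.01 over all genes. Pdk4 was the exception, at −0.22 (SE 0.23, limma adjusted p = 0.804). On the Cy5 signal alone, without the reference, 3 genes passed as lower (Cyp4a10, Cyp4a14, and Cpt1a), and with the ribosomal RNA covariate 4 (these and Ehhadh). With the authors' log2 ratios 6 passed, without Ppara (−1.12, limma adjusted p = 0.0666), and with median centering 6, without Vnn1 (−1.23, limma adjusted p = 0.0509).

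The receptor gene itself was among those that fell. Ppara was at 0.19, −0.28, 1.08, and 0.69 in the 4 chow mice and at −0.86, −0.87, −0.27, and −0.58 in the 4 1B mice. The lowest chow mouse (−0.28) lay just under the highest 1B mouse (−0.27), so the groups touched at that point. The difference was −1.06 (SE 0.27, limma adjusted p = 0.032), a 2.09-fold lower level. In HFD mice Ppara was at 0.63, 0.69, 0.76, and 0.81, a narrow range within that of chow. In HFD+1B mice it was at −1.49, −0.28, −0.60, −0.82, and −0.16, below every HFD mouse. The difference of HFD+1B from HFD was −1.39 (SE 0.25, limma adjusted p = 0.00138), and that of HFD from chow was 0.30 (95% interval −0.26 to 0.87, limma adjusted p = 0.520).

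Cyp4a10 and Cyp4a14 encode cytochrome P450 enzymes that hydroxylate the terminal end of fatty acids, the first step of omega-oxidation, and both are classic markers of PPAR-alpha activity in rodents. They showed the largest differences of the set. Cyp4a10 was at 0.34, 0.40, 1.30, and 1.17 in chow and at −1.56, −1.83, −1.73, and −1.52 in 1B mice. The lowest chow mouse was thus well above the highest 1B mouse, and the difference was −2.46 (SE 0.25, limma adjusted p = 4.50e-05), a 5.51-fold lower level. In the 2 HFD mice with a value Cyp4a10 was at 0.21 and 0.97, and in HFD+1B mice it was at −0.06, −1.07, −0.19, −0.68, and −0.55. The HFD+1B mice lay between the other ethanol group and both maltose groups without overlap. HFD+1B was lower than HFD by a difference of −1.096 (SE 0.29, limma adjusted p = 0.0168) and higher than 1B by 1.15 (SE 0.23, limma adjusted p = 0.00515). The first of these rests on 2 HFD mice on this probe. Without HFD mouse 4 the difference was −0.72, with 1 HFD value left. With median centering in place of loess it was −0.83 (limma adjusted p = 0.0844). The dimmer probes A_52_P257774 and A_52_P340136 have values for all 4 HFD mice. On them the difference of HFD+1B from HFD was −0.98 (SE 0.21, limma adjusted p = 0.00406) and −0.79 (SE 0.17, limma adjusted p = 0.00629). On A_52_P6588, with 2 HFD values, it was −0.65 (SE 0.24, limma adjusted p = 0.0761).

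Cyp4a14 had the widest range of the set. It was at −1.96, −1.98, 0.52, and 0.32 in chow and at −2.42, −3.99, −4.24, and −3.20 in 1B mice. The chow mice were split into a lower and a higher pair, yet all 1B mice were below both. The difference was −2.69 (SE 0.54, limma adjusted p = 0.00803), a 6.44-fold lower level. In HFD mice it was at −0.38, 0.29, 1.11, and 1.13, and in HFD+1B mice at 0.78, −0.20, 0.51, −0.37, and 0.32. These groups overlapped fully, with a difference of −0.33 (95% interval −1.41 to 0.75, limma adjusted p = 0.715). HFD+1B was higher than 1B by 3.67 (SE 0.52, limma adjusted p = 0.000220), a 12.7-fold higher level and the largest difference among the 8 genes in the 5 comparisons of groups. HFD minus chow was 1.31 (95% interval 0.17 to 2.46, limma adjusted p = 0.135) and did not pass.

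The 4 Cyp4a10 probes did not all give the same picture. Sequences of a pair of them, which read as coding sequence, are shown because they carry the disagreement. They are printed 5′ to 3′ as the array annotation gives them, and the 15 capitals mark the bases that read as the conserved oxygen-binding core of the P450 I helix.
A_52_P6588: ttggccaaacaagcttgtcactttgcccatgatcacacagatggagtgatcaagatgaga
A_52_P340136: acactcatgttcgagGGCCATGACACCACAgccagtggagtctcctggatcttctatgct
On A_52_P6588 the log2 difference of 1B from chow was −2.20 (SE 0.22), close to the −2.46 of both the brightest probe and A_52_P257774. On A_52_P340136, which covers the conserved core, the difference was −1.26 (SE 0.24). That probe was at −0.11, −0.39, −0.21, and 0.17 in HFD mice, below the 0.71 and 0.74 of the 2 chow mice with a value. The difference was −0.86 (SE 0.22, limma adjusted p = 0.0266). The chow mice with a value, here and in the difference from 1B, were mice 3 and 4. In the authors' log2 ratios, chow mice 1 and 2 were at 0.29 and 0.25 on this probe, and mice 3 and 4 at 0.72 and 0.66. The HFD mice were between −0.41 and 0.18 there. On this probe HFD+1B differed from 1B by −0.39 (SE 0.19, limma adjusted p = 0.254), whereas the other 3 probes gave between 1.14 and 1.30. The array annotation ties A_52_P340136 to a different transcript record from that of the other 3 probes. Whether this bears on the disagreement was not tested. Cyp4a10 has near-identical relatives in the mouse genome, among them Cyp4a31 and Cyp4a32, and the extent to which each probe also binds their transcripts was not tested. Values for Cyp4a10 are therefore uncertain as to the gene copy. The same holds for Acot1, which has close relatives in its gene cluster.

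Acot1 encodes a cytosolic thioesterase that releases free fatty acid from acyl-CoA. Its chow values were −0.78, −0.23, 1.67, and 1.59, and its 1B values were −1.05, −1.34, −1.41, and −1.20. All 1B mice were lower, although the chow mice spanned more than the whole distance between the group means. The difference was −1.81 (SE 0.43, limma adjusted p = 0.0215). In HFD mice Acot1 was at 0.34, 0.85, 0.13, and 1.53, and in HFD+1B mice at −0.82, −1.26, −1.15, −1.54, and −0.81. All HFD+1B mice were thus below all HFD mice, with a difference of −1.83 (SE 0.41, limma adjusted p = 0.00488). Both ethanol groups were at a similar level, at −1.12 ± 0.31 (SD, n = 5) in HFD+1B and −1.25 ± 0.16 (SD, n = 4) in 1B, and their difference of 0.13 had a 95% interval of −0.72 to 0.99.

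Ehhadh encodes the bifunctional enzyme that carries out the middle steps of peroxisomal beta-oxidation. It was at −0.35, 0.42, and 0.44 in the 3 chow mice with a value and at −0.87, −1.09, −0.78, and −0.60 in 1B mice. The 1B mice were lower without overlap, by a difference of −1.003 (SE 0.18, limma adjusted p = 0.00576). It was at 0.08 and 0.13 in the 2 HFD mice with a value and at −0.23, −0.23, −0.13, and 0.12 in 4 HFD+1B mice. The difference between these was −0.22 (95% interval −0.65 to 0.22, limma adjusted p = 0.509). HFD+1B mice were above all 1B mice, by 0.72 (SE 0.16, limma adjusted p = 0.0135).

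Vnn1 was at −1.08, −1.75, −0.19, and −0.11 in chow and at −2.30, −1.82, and −1.99 in the 3 1B mice with a value. The lowest chow mouse was only slightly above the highest 1B mouse, and the difference was −1.25 (SE 0.30, limma adjusted p = 0.0288). In HFD mice Vnn1 was at 0.40, 0.58, 0.81, and 0.63, above all chow mice, with a difference of 1.39 (SE 0.28, limma adjusted p = 0.00571). In 4 HFD+1B mice it was at −0.30, 0.22, 0.22, and −0.29. These lay below all HFD mice, yet the difference of −0.64 (SE 0.28, limma adjusted p = 0.124) did not pass. With slide as a block it was −0.80 (limma adjusted p = 0.0301). HFD+1B was higher than 1B by 2.00 (SE 0.30, limma adjusted p = 0.000617).

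Pdk4 encodes a kinase that shuts down the pyruvate dehydrogenase complex and so keeps pyruvate from being burned. It differed with diet, and no difference with the binge passed on either diet. It was at −0.68, −1.07, −0.57, and −1.12 in chow and at −1.40, −0.91, −1.33, and −0.66 in 1B mice, which overlapped. In HFD mice it was at −0.07, 0.20, 0.24, and 0.37, and in HFD+1B mice at −0.35, 0.55, 0.90, 0.53, and −0.09. Every mouse on HFD was above every mouse on chow. The difference was 1.04 (SE 0.23, limma adjusted p = 0.00855) for HFD against chow and 1.38 (SE 0.22, limma adjusted p = 0.000617) for HFD+1B against 1B. With the authors' log2 ratios these were 1.70 and 2.11. The difference of HFD+1B from HFD was 0.13 (95% interval −0.33 to 0.59), and that of 1B from chow had a 95% interval of −0.70 to 0.27. In Cy5, Pdk4 was at only 51 to 124 intensity units in chow and 53 to 77 in 1B mice. Background correction with an offset pulls ratios of such dim probes toward 0, so a fall after the binge on chow could be missed. The difference of 1B from chow did not pass with a normexp offset of 10 (limma adjusted p = 0.750) or without background subtraction (limma adjusted p = 0.809). Nor did it with the authors' log2 ratios (limma adjusted p = 0.762). Over 30 settings it was between −0.39 and −0.07.

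Cpt1a encodes the liver carnitine palmitoyltransferase that controls the entry of long-chain fatty acids into mitochondria. It was at 0.17, −0.16, 0.41, and 0.24 in chow and at −0.85, −0.72, −0.69, and −0.64 in 1B mice, a difference of −0.89 (SE 0.16, limma adjusted p = 0.00242). In HFD mice it was at 0.98, 1.103, 1.47, and 1.26, above all chow mice, a difference of 1.04 (SE 0.16, limma adjusted p = 0.000605). In HFD+1B mice it was at −0.51, −0.09, 0.01, −0.61, and 0.07. Cpt1a was the gene of the set with the smallest adjusted p for the binge on HFD, where the difference was −1.43 (SE 0.15, limma adjusted p = 1.82e-05), a 2.69-fold lower level. The second Cpt1a probe gave −0.73 (SE 0.15) for 1B against chow, 0.81 (SE 0.15) for HFD against chow, and −1.18 (SE 0.14) for HFD+1B against HFD, all with the sign of the brighter probe. The HFD+1B mice remained above the 1B mice, by 0.50 (SE 0.15, limma adjusted p = 0.0372) on the brighter probe and by 0.36 (limma adjusted p = 0.126) on the second.

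**Figure D2:**
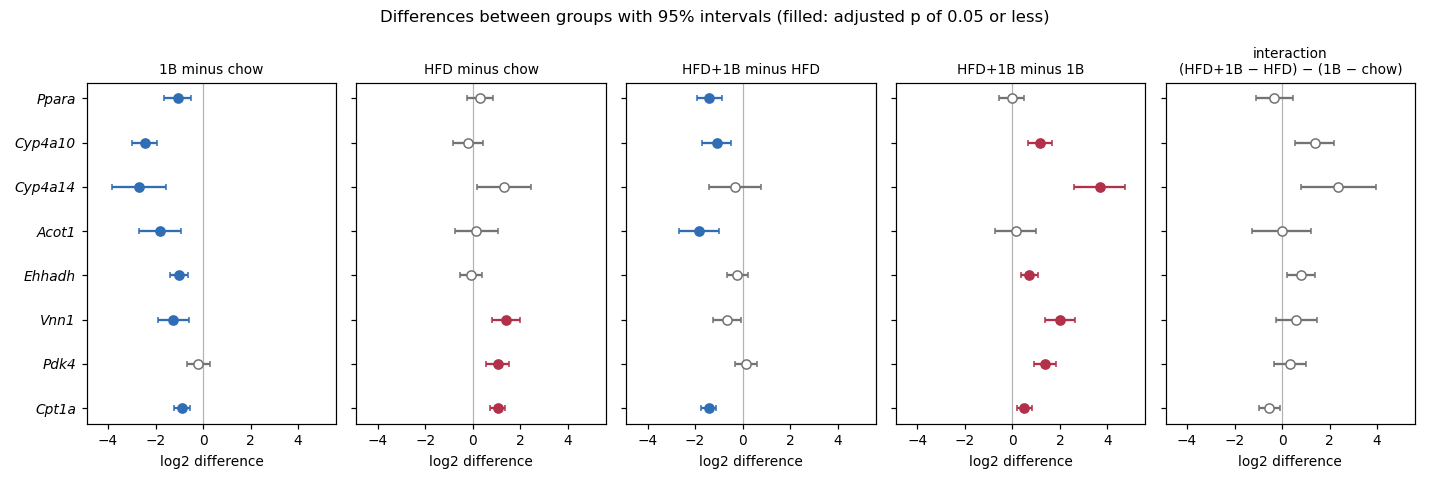
Log2 difference (x axis) with its 95% interval for 8 genes (y axis) in 4 comparisons of groups and in the interaction. Filled points passed an adjusted p of 0.05 or less (blue lower, red higher) and open points did not. In 1B minus chow 7 of 8 points are filled and lie below 0, and in the interaction none is filled.

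Across the set, HFD alone had 3 of 8 genes higher than chow (Vnn1, Pdk4, and Cpt1a) and 0 lower, beside 4.5% higher and 6.47% lower of all genes. The median difference of the 8 genes was 0.67, against 0.00 over all genes. The binge on HFD left 4 of 8 lower than HFD (Ppara, Cyp4a10, Acot1, and Cpt1a) and 0 higher, beside 8.39% lower and 11% higher of all genes, with a median of −0.87 against 0.01. With both exposures, HFD+1B mice had 3 genes lower than chow (Ppara, Cyp4a10, and Acot1) and 1 higher (Pdk4), beside 7.4% lower and 8.9% higher of all genes. The differences of the 3 were −1.09 (SE 0.25), −1.31 (SE 0.23), and −1.68 (SE 0.41), and that of Pdk4 was 1.17 (SE 0.22), with limma adjusted p between 0.00114 and 0.00823. In the directions with a count of 0, limma's unadjusted p was also under 0.05 for 0 of the 8 genes. With the ribosomal RNA signal held as a covariate, 0 of 8 genes were higher in HFD than in chow and 0 were lower after the binge on HFD. In that fit the differences of HFD from chow were 1.42 for Vnn1, 1.54 for Pdk4, and 0.39 for Cpt1a (limma adjusted p between 0.782 and 0.946). Those of HFD+1B from HFD were −1.03 for Ppara, −0.68 for Cyp4a10, −1.40 for Acot1, and −0.83 for Cpt1a (limma adjusted p between 0.614 and 0.953). For HFD+1B against chow it gave 4 lower, with Cpt1a added, and Cy5 alone gave 2, without Ppara (limma adjusted p = 0.0717). As that signal separates the HFD mice from all others, it and the HFD group cannot be told apart. These comparisons share the chow or the HFD mice, so their values are not independent of each other.

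Both ethanol groups were compared directly to show how diet altered the level after the binge. Of the 8 genes, 6 were higher in HFD+1B than in 1B and 0 were lower, beside 6.28% higher and 5.15% lower of all genes. Cyp4a14, Vnn1, Pdk4, Cyp4a10, Ehhadh, and Cpt1a passed, in this order of size, and Ppara (−0.03, 95% interval −0.56 to 0.51) and Acot1 did not. The call for Cpt1a was lost when any 1 of the 4 1B mice, or HFD+1B mouse 2, 3, or 5, was left out, at limma adjusted p between 0.0532 and 0.107. It was also lost with the authors' log2 ratios (limma adjusted p = 0.0951), with a normexp offset of 10 (0.0592), and with Cy5 alone (0.319), where Ehhadh was lost too (0.775), which left 5, 5, and 4 genes.

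Whether the binge had a different effect on the 2 diets was tested as an interaction, the difference of HFD+1B from HFD less that of 1B from chow. Of the 8 genes, 0 were positive and 0 negative at an adjusted p of 0.05 or less, beside 2.66% positive and 1.72% negative of all genes. At an unadjusted p under 0.05 in limma there were 3 positive (Cyp4a10, Cyp4a14, and Ehhadh) and 1 negative (Cpt1a). Cyp4a14 had the largest estimate at 2.36 (95% interval 0.78 to 3.93, limma adjusted p = 0.0828), followed by Cyp4a10 at 1.37 (95% interval 0.56 to 2.18, limma adjusted p = 0.0559). On the dimmer Cyp4a10 probes A_52_P257774 and A_52_P6588 the interaction passed, at 1.48 (SE 0.31, limma adjusted p = 0.0145) and 1.55 (SE 0.33, limma adjusted p = 0.0197), and on A_52_P340136 it was 0.47 (SE 0.29, limma adjusted p = 0.405). The brightest probe has values for 2 of 4 HFD mice and A_52_P257774 for all 4. Without chow mouse 2, the interaction passed for 3 genes, Cyp4a10 (1.502), Cyp4a14 (2.76), and Ehhadh (1.04). Without HFD+1B mouse 2 it passed for Cyp4a10 (1.51).

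The chow mice were not uniform. For every gene of the set except Pdk4, chow mice 1 and 2, as far as they had a value, were below chow mice 3 and 4. The gap was widest for Cyp4a14 and Acot1, and narrow for Cpt1a, where mouse 1 was at 0.17 and mouse 4 at 0.24. The 4 chow mice were on 4 different slides. Differences between mice on the same slide ran downward on all 3 slides that held both 1B and chow for Ppara (−1.35 to −0.59), Cyp4a10 (−3.04 to −1.90), Cyp4a14 (−4.76 to −0.46), Acot1 (−3.08 to −0.27), Vnn1 (−1.79 to −0.06), and Cpt1a (−1.098 to −0.56). Ehhadh had values on 2 such slides (−1.20 and −0.74). The share of all genes that ran downward on every such slide is not given. With slide as a block, the same 7 genes passed in 1B against chow.

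Single mice decided some of these calls. Without chow mouse 3, chow mouse 4, or 1B mouse 2, the count of genes lower in 1B than in chow was 4, and Ppara, Acot1, and Vnn1 were the ones lost, at limma adjusted p between 0.0539 and 0.128. Ppara also missed without 1B mouse 1 or 4, Acot1 without 1B mouse 3, and Vnn1 without 1B mouse 1 or 3, at limma adjusted p between 0.0555 and 0.139. Cyp4a10, Cyp4a14, Ehhadh, and Cpt1a passed in every fit that left out 1 mouse. For HFD+1B against chow, the count lower was 5 without chow mouse 2, with Ehhadh (−0.54) and Cpt1a (−0.50) added. Vnn1 passed as higher in HFD+1B than in chow without chow mouse 3 (0.94) or chow mouse 4 (0.97).

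**Figure D3:**
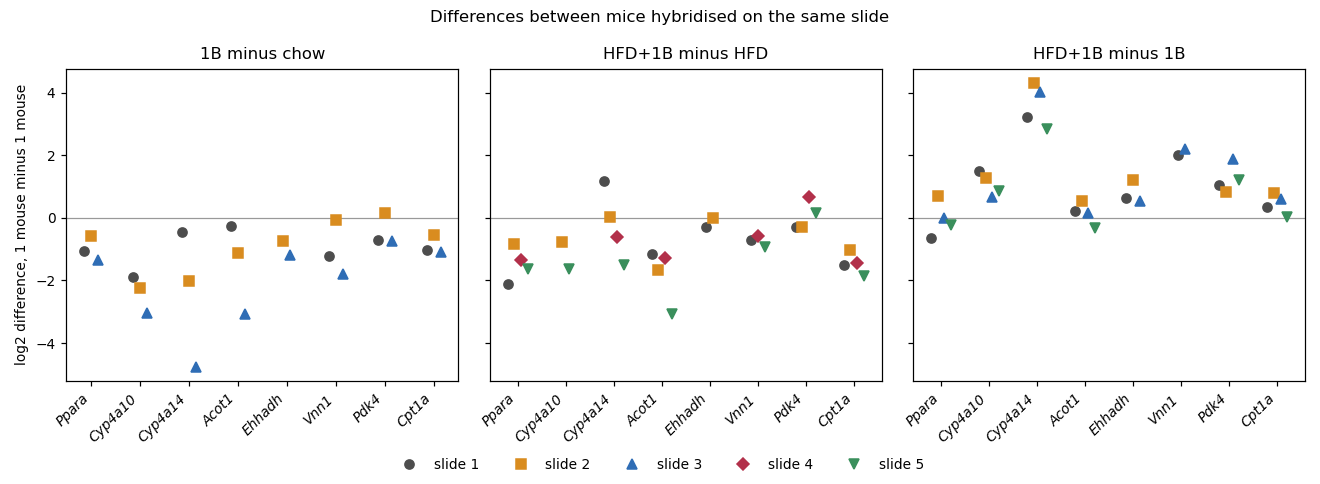
Log2 difference between 1 mouse and another on the same slide (y axis) for 8 genes (x axis) in 3 comparisons, with the shape and color of a point giving the slide. Points for 1B minus chow lie below 0 on every slide except for Pdk4 on slide 2 (0.16), and those for HFD+1B minus 1B lie above 0 for Cyp4a14 on all 4 slides (2.83 to 4.31).

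The other genes of the pathway were taken from 9 lists of omega-oxidation, beta-oxidation, ketogenesis, and related steps, 119 genes in all besides the 8. In 1B against chow, 13 were lower and 5 higher (median −0.18), beside 2.04% and 2.09% of all genes. In HFD against chow, 29 were higher and 7 lower (median 0.24), beside 4.5% and 6.47% of all genes. In HFD+1B against HFD, 30 were lower and 9 higher (median −0.16), beside 8.39% and 11% of all genes. In HFD+1B against 1B, 31 were higher and 6 lower (median 0.23), beside 6.28% and 5.15% of all genes. The medians over all genes were within 0.01 of 0 in these comparisons.

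In omega-oxidation (8 genes) the Cyp4a family divided. Cyp4a31, a neighbor of Cyp4a10, was lower in 1B than in chow by a difference of −1.78 (SE 0.17, limma adjusted p = 1.14e-05) and had a positive interaction (0.94, SE 0.23, limma adjusted p = 0.0309). Cyp4a12a and Cyp4a12b, male-predominant members of the family, showed −0.35 and −0.44 for the binge on chow, which did not pass. Against chow both were lower in HFD, with differences of −1.63 and −1.43, and in HFD+1B, with differences of −2.33 and −2.17 (SE 0.21 to 0.24). Aldh3a2, the fatty aldehyde dehydrogenase that acts after the Cyp4a enzymes, differed from chow by −1.196 (SE 0.17, limma adjusted p = 0.000498) in 1B and by 1.02 (SE 0.17, limma adjusted p = 0.00148) in HFD.

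In beta-oxidation, peroxisomal genes (19 besides Ehhadh) included 7 that were higher in HFD than in chow, beside 4.5% of all genes. After the binge on HFD 7 were lower, beside 8.39% of all genes. Crat, a carnitine acetyltransferase, was higher in HFD than in chow by 1.52 (SE 0.36, limma adjusted p = 0.0119). Pex11a, a peroxisome proliferation factor, was lower after the binge on HFD, with a difference of −1.11 (SE 0.26). Hacl1 was on the same list, although it shortens branched fatty acids by peroxisomal alpha-oxidation and not beta-oxidation. It was at 0.30 ± 0.48 in chow (SD, n = 4), 0.30 ± 0.36 in 1B (SD, n = 4), 0.53 ± 0.46 in HFD (SD, n = 4), and −1.22 ± 0.18 in HFD+1B mice (SD, n = 5). Its interaction of −1.75 (SE 0.33, limma adjusted p = 0.00944) ran opposite in sign to the estimates for Cyp4a10 and Cyp4a14.

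Of 20 mitochondrial genes besides Cpt1a, 6 were lower and 1 higher in 1B than in chow, beside 2.04% and 2.09% of all genes. After the binge on HFD 8 were lower, beside 8.39% of all genes. Acsl1, which activates long-chain fatty acids to acyl-CoA, was lower after the binge on both diets, with a difference of −1.08 (SE 0.22) on chow and −1.06 (SE 0.22) on HFD. The gene that was higher in 1B than in chow was Acacb, with a difference of 1.495 (SE 0.35, limma adjusted p = 0.0219). Its enzyme makes the malonyl-CoA that inhibits Cpt1a. Mlycd, which removes malonyl-CoA, was lower after the binge on HFD, with a difference of −0.81 (SE 0.18). Among the thioesterases, Acot3 and Acot4, neighbors of Acot1, were also lower after the binge on HFD, with differences of −2.41 (SE 0.42) and −1.94 (SE 0.30), and on chow their differences were −1.51 and −0.98, which did not pass.

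Ketogenesis (6 genes) was the list with the largest share higher in HFD than in chow, 5 of 6, beside 4.5% of all genes. The ketone body and monocarboxylate transporters Slc16a6 and Slc16a1 rose with both exposures, with Slc16a6 higher after the binge by 1.25 (SE 0.16) on chow and by 1.61 (SE 0.15) on HFD. Among 8 genes of pyruvate dehydrogenase control other than Pdk4, 1 rose with the binge on both diets. Of all genes, 2.09% were higher after the binge on chow and 11% on HFD. The gene of this list that rose was Pdhb, a subunit of the complex that Pdk4 inhibits, by 1.82 (SE 0.12) on chow and 1.14 (SE 0.12) on HFD. Its interaction was −0.68 (SE 0.17, limma adjusted p = 0.0351).

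Among 20 other known PPAR-alpha targets, 9 were higher and 1 lower in HFD than in chow, beside 4.5% and 6.47% of all genes. The 1 that passed in 1B against chow was lower, beside 2.04% of all genes. The lipid droplet genes Cidec and Cidea and the fatty acid transporter Cd36 were higher in HFD than in chow, with differences of 3.43 (SE 0.46), 2.12 (SE 0.25), and 1.80 (SE 0.28). After the binge on HFD their differences from HFD were 0.28, 0.08, and 0.39, which did not pass. G0s2, an inhibitor of triglyceride lipase, was lower after the binge on HFD, with a difference of −2.13 (SE 0.45, limma adjusted p = 0.00348). Among 16 partners and coregulators of the receptor, 3 were higher and 2 lower after the binge on HFD, beside 11% and 8.39% of all genes. Lpin1, a coactivator of PPAR-alpha and a phosphatidate phosphatase, was higher after the binge on HFD by 2.19 (SE 0.34), whereas Rxrg, 1 of the partner receptors, was lower, with a difference of −0.72 (SE 0.18).

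**Figure D4:**
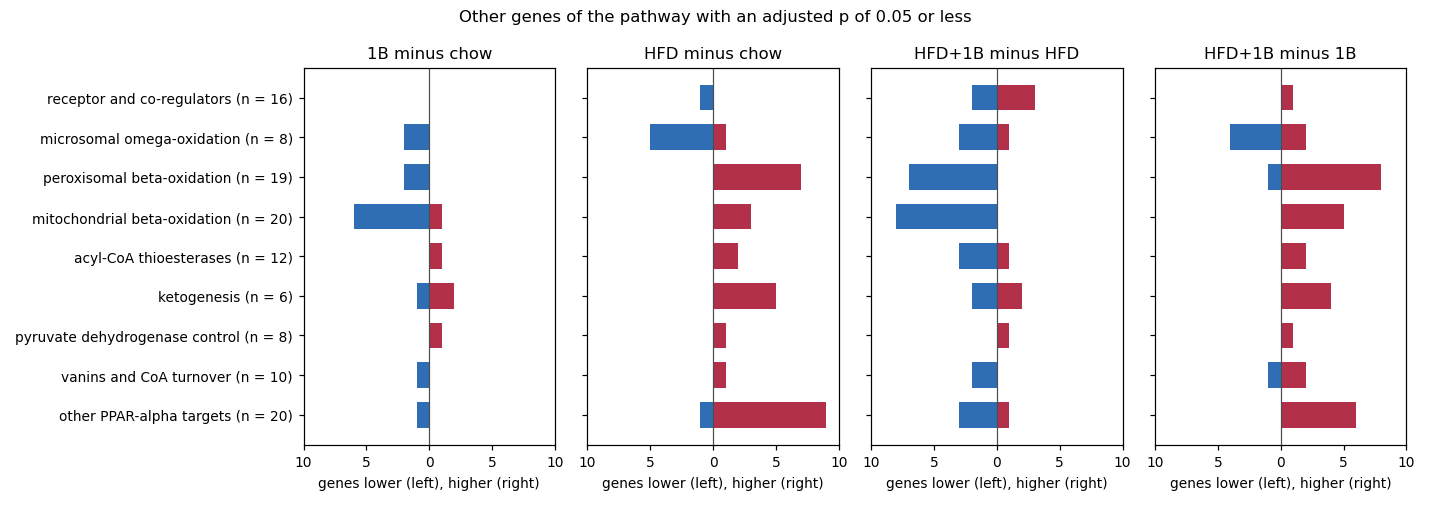
Number of genes (x axis, lower to the left in blue and higher to the right in red) that passed an adjusted p of 0.05 or less in each of 9 lists (y axis, with the number of genes tested besides the 8), for 4 comparisons. Mitochondrial genes run to the left in 1B minus chow (6 lower) and in HFD+1B minus HFD (8 lower), beside 2.04% and 8.39% of all genes. Other PPAR-alpha targets run to the right in HFD minus chow (9 higher), beside 4.5% of all genes.

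The patterns of the 8 genes over mice were related to different degrees. Pearson's r between members was highest for Cyp4a14 and Vnn1 (0.89) and Cyp4a10 and Ehhadh (0.89), and lowest for Acot1 and Pdk4 (0.01). Ppara followed Cpt1a (0.84) and Acot1 (0.84) more closely than Cyp4a14 (0.42). Among 15370 probes with signal on all arrays, the gene most like Ppara was Mettl7b (0.95, 17 mice), and that most like Cyp4a10 was Cyp4a31 (0.98, 15 mice). Cyp4a14 was most like Eci1 (0.92), Ehhadh like Slc25a20 (0.95), and Vnn1 like Aldh3a2 (0.96). Cpt1a was most like Acadl (0.95), Acot1 like Acbd5 (0.90), and Pdk4 like Vcam1 (0.93). These coefficients describe mice that share the group differences, slides, and reference RNA, and carry no test.

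Promoters of 5 members (Ppara, Acot1, Ehhadh, Pdk4, and Cpt1a) were matched by symbol to the RefSeq table of build GRCm38.p6. The 250 bases before the listed start were searched on both strands for AGGTCA, the half-site of nuclear receptors, which reads TGACCT on the other strand. It was found in 1 of 5, that of Cpt1a, and in 14.02% of all 32851 promoters of the same length. The direct repeat of this half-site with 1 base between (DR1), the element that PPAR-alpha binds, was not found in any of the 5 with up to 3 of 12 bases changed. Of all promoters, 21.3% hold such a match. The repeat is built from the half-site, so its search is not independent of that for the half-site. Sites farther upstream or within the genes were not searched, so absence here does not mean that a gene lacks the element.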

How the data were processed

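Each of 17 livers was hybridized to a 2-color Agilent array, with liver cDNA in Cy5 and a common reference in Cy3, without a dye swap. The authors extracted spot values with Feature Extraction, and the deposited scanner files give median spot and background signals as intensity, not normalized. The authors also deposited log2 ratios of liver to reference per probe, already corrected and normalized per array, which served for gene symbols and as an alternative (0 columns unused).

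Signals were corrected with normexp (offset 50) and loess within arrays. Outlier spots were left out, and spots of 1 probe were averaged. Out of 41174 probes, 34664 (19358 genes) were tested, those well above background in Cy5 on at least 4 arrays with a value in every group (25 had none). A normexp offset pulls ratios of dim probes toward 0, and the number of arrays limits precision. All groups were fitted together with limma 3.58.1 in R 4.3.3 (13 residual degrees of freedom, 6 comparisons), and the script was tested on simulated data. The median Cy5 signal per array was 63 to 158 intensity units, and 74.2 to 86.1% of probes were well above background.

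All probes of the 8 genes are reported. From each of 9 lists, the genes named were up to 3 with the largest difference in HFD+1B against chow and up to 2 each in HFD against chow and HFD+1B against HFD, at an adjusted p of 0.05 or less. The lists held 131 genes, of which 128 were on the array and 127 tested. The 3 genes most like each member were found by Pearson's r. The members and lists were chosen with earlier results of these data known. The labels do not say that a replicate number marks shared mice or days, and not every same-numbered pair of arrays was correlated, so the numbers were not used as pairs. Alternatives were other background, centering, filter, probe, block, and test settings, and each mouse left out.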

Additional observations from a re-analysis of the deposited data

How the results depend on the processing

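Under the alternatives, 1320 values kept their direction and their side of the threshold, 49 lost a call, 26 gained one, and 37 changed sign. The count of genes lower in 1B than in chow (7) was 3 with Cy5 alone and 4 with ribosomal RNA signal as covariate, a fit chosen after the data were seen, 6 with the authors' log2 table and with median centering, and 4 to 7 when 1 mouse was left out. Genes higher in HFD than in chow (3) were 1 with Cy5 alone and 0 with that covariate, which also left 0 lower in HFD+1B than in HFD (4). Ribosomal RNA was low in all HFD mice, so the covariate and the HFD group largely coincide. Positive interactions (0) were 1 without background subtraction, with the authors' log2 table, with probes well above background on all 17 arrays, with the replicate block, and with the mean of all probes of a gene, 2 with a normexp offset of 10 or at 2-fold with an unadjusted p, and 3 with median centering. Median centering moved the median of all genes by 0.14 in HFD+1B minus HFD and in the interaction. With 1 mouse left out, positive interactions were 0 to 3, and genes in HFD+1B against chow were 3 to 5 lower and 1 to 2 higher (2 lower with Cy5 alone). The cause of these changes was not tested.

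Values that changed sign had not passed in either setting. For Ehhadh in HFD minus chow they were 0.17 (authors' table), 0.074 (slide block), 0.16 (replicate block), and 0.056 and 0.064 without chow mouse 3 or 4. For Acot1 they were −0.058 with median centering, −0.30, −0.11, and −0.12 without chow mouse 1, chow mouse 2, or HFD mouse 4, and −0.32 with the covariate. For Cyp4a10 it was 0.17 without HFD mouse 2, the top of a range from −0.59. In HFD+1B minus HFD it was 0.11 for Ehhadh with median centering and −0.022 for Pdk4 without HFD+1B mouse 3, in a range up to 0.29. For Ppara in HFD+1B minus 1B they were 0.10 with median centering, 0.097, 0.18, and 0.0090 without 1B mouse 3, HFD+1B mouse 1, or HFD+1B mouse 4 (lowest −0.16 without 1 mouse), and 0.033 with the covariate. In the interaction they were 0.023 for Ppara and 0.32 for Acot1 with median centering, and for Acot1 0.045 with the authors' table, 0.027 with Cy5 alone, and −0.38 to 0.43 without 1 mouse, above 0 in 7 such fits. With the covariate, HFD minus chow was −0.10 for Ppara and −0.63 for Cyp4a14, HFD+1B minus HFD was 1.46 for Cyp4a14 and −0.33 for Pdk4, and the interaction was 0.13 for Ppara, 0.52 for Acot1, −0.23 for Pdk4, and 0.21 for Cpt1a.

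Same-numbered mice of different groups had correlated deviations (r over 0.1) in 16 of 24 pairs (−0.13 to 0.47), and 10 of 16 arrays correlated best with their own number. Same-numbered mice often shared a slide. Pairs on the same slide had a median r of 0.19 (21 pairs, −0.25 to 0.47). Pairs on different slides had a median of −0.04 (87 pairs, −0.43 to 0.32). The separate parts of slide and number were not tested. With the replicate block, the other change of call was Cpt1a in HFD+1B minus chow (−0.46), which passed.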
